A study of Mus musculus with 12 samples.

Results

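Wnt signalling was followed through 46 genes in 12 mammary tumors: 19 Wnt ligands, 10 Frizzled receptors, 4 secreted Frizzled-related proteins (Sfrp), 4 Dickkopf proteins (Dkk), Lrp5, Lrp6, Lgr4, Lgr5, Lgr6, Rnf43, Znrf3, Axin2 and Notum. They were taken by symbol from the 47593 Ensembl genes of the deposited table, and every member had a row. The tumors came from 9 female MADM-mutant mice (MADM-Brca1-p53; MMTV-Cre), in which the TG and GT cassettes of mosaic analysis with double markers lay on chromosome 11, a floxed Brca1 and a p53 knockout allele were linked to one of them, and Cre was driven by the MMTV promoter, which is active mainly in mammary epithelium. The labels give every tumor the same genotype (MADM RG;GR alleles on a mixed background) and no treatment. In this model rare GFP-positive cells lose both genes and arise with RFP-positive wild-type sister cells, most other cells stay heterozygous, and each library was made from homogenised tumor, so it also holds stroma and non-mutant cells. Tumors 3 and 4 came from one mouse, tumors 10, 11 and 12 from another, and the other 7 mice gave 1 tumor each. The 12 tumors are therefore not 12 independent animals, and errors and tests below take the mouse as the unit (n = 9) unless another unit or number is given. The series holds a single condition and no normal mammary gland, and the ages of the mice were not given in the sources used here.

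Wnt proteins are lipid-modified secreted ligands that bind a Frizzled receptor together with the co-receptors Lrp5 or Lrp6, which stabilises beta-catenin and lets it act with TCF and LEF factors on target genes. R-spondins, through the Lgr receptors, protect Frizzleds from the E3 ligases Rnf43 and Znrf3, while Sfrp, Dkk, Notum and Axin2 proteins hold the pathway back at different steps. In the mammary gland the pathway is known for its part in branching and stem cell maintenance, and several of its ligands were first found as genes activated by insertion of the mouse mammary tumor virus.

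Values are TPM, a transcript measure in which reads are divided by gene length and scaled to a fixed total per tumor, so that levels of different genes can be set side by side within a tumor. Read numbers cannot be recovered from TPM, so sequencing depth is unknown here and intervals for counting error are not printed; each tumor summed to between 999770 and 999909 TPM. A value of 0 is reported as listed at 0, and none of 18 housekeeping genes looked at was at 0 in any tumor. The labelled tissue was checked with marker lists. The 6 epithelial genes (Cdh1, Epcam, Krt8, Krt18, Cldn7 and Esrp1) summed to 1.25 TPM in tumor 2 and 151 TPM in tumor 8, against 2368 to 7389 TPM in the other 10 tumors. In tumor 2 all 6 were below 1 TPM and 2 were at 0, so the defining epithelial markers were at or near 0 there, and the 5 B lymphocyte genes summed to 1852 TPM. Tumor 9 was second for B lymphocyte genes with 115 TPM, and the highest of the others was 7.80 TPM. Tests and means that rest on tumors 2, 8 and 9 are given with and without them. In bulk tissue, fewer cells of a type and less RNA per cell cannot be told apart.

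Promoter sequences are shown for 3 members on which the results turn: Fzd7, the most abundant receptor, Axin2, the usual readout of beta-catenin activity, and Wnt11, a ligand that stood high in 1 tumor. Each is the 250 bases before the RefSeq start (GRCm38.p6, plus strand, 5′ to 3′), and capitals mark CTTTGA or CTTTGT on either strand, the core letters of a TCF and LEF motif.
Fzd7, chr1:59481897-59482146: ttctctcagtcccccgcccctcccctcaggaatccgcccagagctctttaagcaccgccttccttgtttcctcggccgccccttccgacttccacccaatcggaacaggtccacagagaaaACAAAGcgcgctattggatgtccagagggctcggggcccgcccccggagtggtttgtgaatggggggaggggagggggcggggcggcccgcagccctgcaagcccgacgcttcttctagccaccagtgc
Axin2, chr11:108920099-108920348: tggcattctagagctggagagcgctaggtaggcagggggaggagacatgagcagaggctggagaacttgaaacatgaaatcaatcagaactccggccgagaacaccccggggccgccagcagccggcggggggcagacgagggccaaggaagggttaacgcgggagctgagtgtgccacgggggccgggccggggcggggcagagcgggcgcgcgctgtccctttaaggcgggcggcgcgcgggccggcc
Wnt11, chr7:98834862-98835111: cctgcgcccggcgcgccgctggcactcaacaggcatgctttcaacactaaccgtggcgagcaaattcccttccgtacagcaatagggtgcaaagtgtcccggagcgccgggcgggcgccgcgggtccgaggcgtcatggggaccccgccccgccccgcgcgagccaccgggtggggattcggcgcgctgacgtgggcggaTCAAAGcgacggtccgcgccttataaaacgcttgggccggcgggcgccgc
The Fzd7 window held 1 such match, 129 bases before the start, the Wnt11 window held 1, 50 bases before it, and the Axin2 window held none. Wnt11 has a second RefSeq start, not printed here, and its window (chr7:98838595-98838844) held no match. RefSeq windows were given for 29 of the 46 members, with 33 start sites, and 7 of these (21.2%) held a match, against 27.6% of 32851 windows over all genes. A match is a description of letters in this window. The members' windows had a median of 20 CpG dinucleotides and 66.8% GC, against 6 and 52.4% over all windows.

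Of the 46 members, 33 had a mean of 1 TPM or more over the 12 tumors and 13 had a mean of 10 TPM or more. The remaining 13 had a mean under 1 TPM, and 4 of them, the ligands Wnt3, Wnt3a and Wnt8b and the antagonist Dkk4, were listed at 0 in every tumor. By role, 9 of 10 Frizzleds, both Lrp co-receptors and 10 of 19 ligands reached a mean of 1 TPM, and 3 Frizzleds, both co-receptors and 1 ligand reached 1 TPM in every tumor. A single tumor could carry a gene over this limit, as with Lgr5 and Wnt2b, whose means without their highest tumor were 0.725 and 0.785 TPM. Tumor 2 had the lowest value of all tumors for 22 of the 33 members with a mean of 1 TPM or more.

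**Figure D1:**
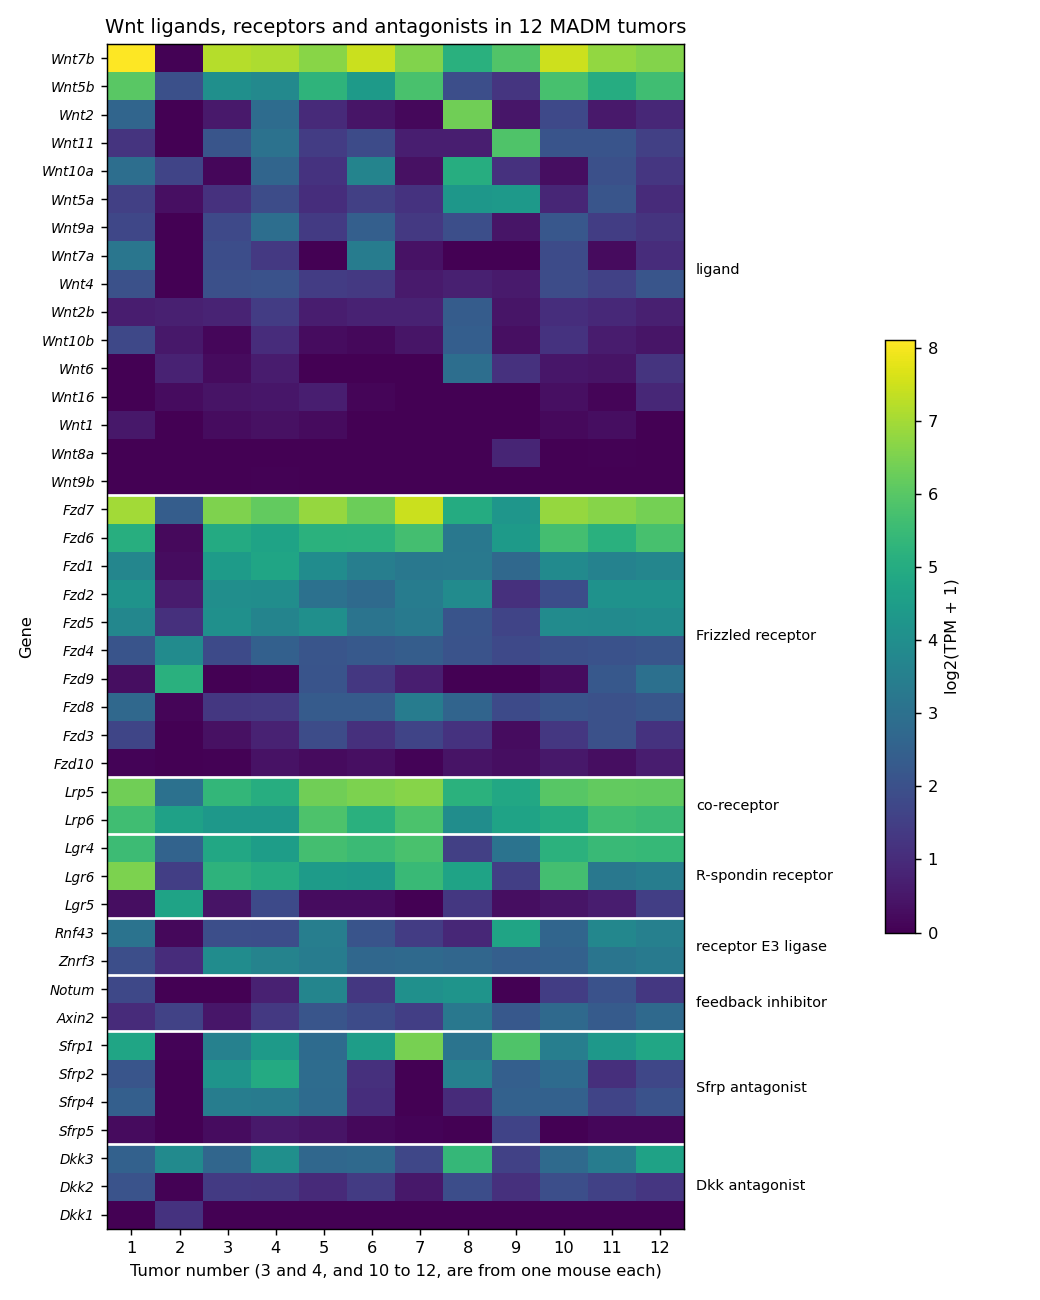
Heatmap of log2(TPM + 1) for the 42 members above 0 in any tumor (rows, grouped by role and ordered by mean TPM) in tumors 1 to 12 (columns). Wnt7b, Fzd7, Lrp5 and Lrp6 are bright in nearly all columns, whereas Fzd9, Lgr5 and Fzd4 are brightest in tumor 2, Wnt2 in tumor 8 and Wnt11 in tumor 9.

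Among the ligands, Wnt7b was the most abundant in 10 of 12 tumors. It is a ligand known from many epithelia (chr15:85535437-85582473, minus strand). Its level was 273, 0.0338, 145, 136, 99.7, 174, 94.6, 34.4, 58.5, 177, 108 and 96.4 TPM in tumors 1 to 12, or 111 ± 81.3 TPM (SD, n = 9 mice) and 152 ± 66.3 TPM without tumors 2, 8 and 9 (n = 6 mice). Tumor 2 was nearly without it and tumors 8 and 9 were the next lowest, while the other 9 tumors all lay above 90 TPM. Wnt7b made up 60.7% to 82.7% of the summed TPM of the 19 ligands in those 9 tumors, 41.2% in tumor 9, 18.4% in tumor 8 and 0.460% in tumor 2.

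Wnt5b, known mainly for signalling without beta-catenin, was the second ligand in those 9 tumors. Its level was 63.6, 2.93, 15.5, 13.1, 37.2, 20.4, 53.6, 2.83, 1.37, 53.0, 31.7 and 48.3 TPM in tumors 1 to 12. The same tumors 2, 8 and 9 were the lowest, all below 3 TPM. The summed ligand TPM was 7.34 in tumor 2 and 142 to 369 in the other 11 tumors.

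In tumor 8 the leading ligand was Wnt2, a beta-catenin-dependent ligand known from mesenchyme of the lung and other organs (chr6:17988940-18030585, minus strand). Its level was 5.18, 0, 0.455, 6.22, 0.966, 0.384, 0.131, 79.7, 0.402, 2.43, 0.455 and 0.887 TPM in tumors 1 to 12. Only tumor 8 exceeded 10 TPM, where Wnt2 made up 42.7% of ligand TPM. Wnt10a, a ligand of hair and tooth development, stood at 6.53, 2.14, 0.112, 5.22, 1.27, 11.7, 0.295, 32.2, 1.23, 0.243, 2.96 and 1.43 TPM in tumors 1 to 12, highest in tumor 8 and second in tumor 6. Wnt2b, Wnt6 and Wnt10b were low, but also had their highest values in tumor 8, at 4.15, 6.64 and 4.38 TPM. Tumor 8 held the second lowest epithelial sum and the highest fibroblast sum (6 genes, 3115 TPM, against 83.0 to 2851 TPM elsewhere). Dcn gave 1732 TPM of that sum (next tumor 285 TPM). Dcn and Pdgfra were highest in tumor 8, but Col1a1, Col1a2, Col3a1 and Lum were highest in tumor 4. By the median log2(TPM + 1) of the 6 genes, tumor 4 (8.70) stood above tumor 8 (8.36). Tumor 8 was highest for the 4 endothelial genes (135 TPM, next 75.6) and the 4 macrophage genes (1573 TPM, next 1276). The part of these cells in the Wnt2 and Wnt10a levels was not tested.

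Wnt2 lies on chromosome 6 near Met, which encodes the receptor of hepatocyte growth factor (chr6:17463800-17573980). Met stood at 1251 TPM or more in 10 tumors, and at 1.13 TPM in tumor 2 and 78.3 TPM in tumor 9. Across those 10 tumors with high Met, Wnt2 ranged from 0.131 to 79.7 TPM.

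In tumor 9 Wnt11, a ligand known for cell movements in the embryo, stood almost level with Wnt7b. Wnt11 (chr7:98835112-98855195, plus strand) was at 1.33, 0, 3.42, 7.35, 1.73, 2.58, 0.592, 0.608, 57.0, 3.31, 3.27 and 1.92 TPM in tumors 1 to 12. Tumor 9 alone exceeded 10 TPM, and its Wnt11 share of ligand TPM was 40.1%. Wnt5a, the close relative of Wnt5b, was at 1.87, 0.257, 1.21, 2.72, 1.07, 1.89, 1.29, 18.4, 20.1, 0.845, 3.44 and 0.981 TPM in tumors 1 to 12. Here tumors 8 and 9 were both high and the other 10 tumors lay below 4 TPM.

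Wnt9a, known from joint formation, was at 2.28, 0, 2.45, 6.60, 1.57, 4.52, 1.52, 2.85, 0.382, 3.62, 1.79 and 1.31 TPM in tumors 1 to 12. Wnt7a, which patterns the limb, was at 8.12, 0, 2.78, 1.54, 0, 9.51, 0.306, 0, 0, 2.63, 0.173 and 1.05 TPM. Wnt7a was highest in tumors 1 and 6 and listed at 0 in 4 tumors, 2, 8 and 9 among them. Wnt4, which progesterone induces in mammary epithelium, ranged from 0 in tumor 2 to 3.39 TPM in tumor 12, with a median of 1.83 TPM. The other ligands were scarce: Wnt1 and Wnt16 stayed under 1 TPM in every tumor, Wnt8a was above 0 in 2 tumors and Wnt9b in 1 tumor. Of the known insertion sites of the mammary tumor virus, Wnt1 thus reached at most 0.438 TPM, Wnt3 was listed at 0 and Wnt10b was at 1 TPM or more in 4 tumors, with 4.38 TPM at most.

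**Figure D2:**
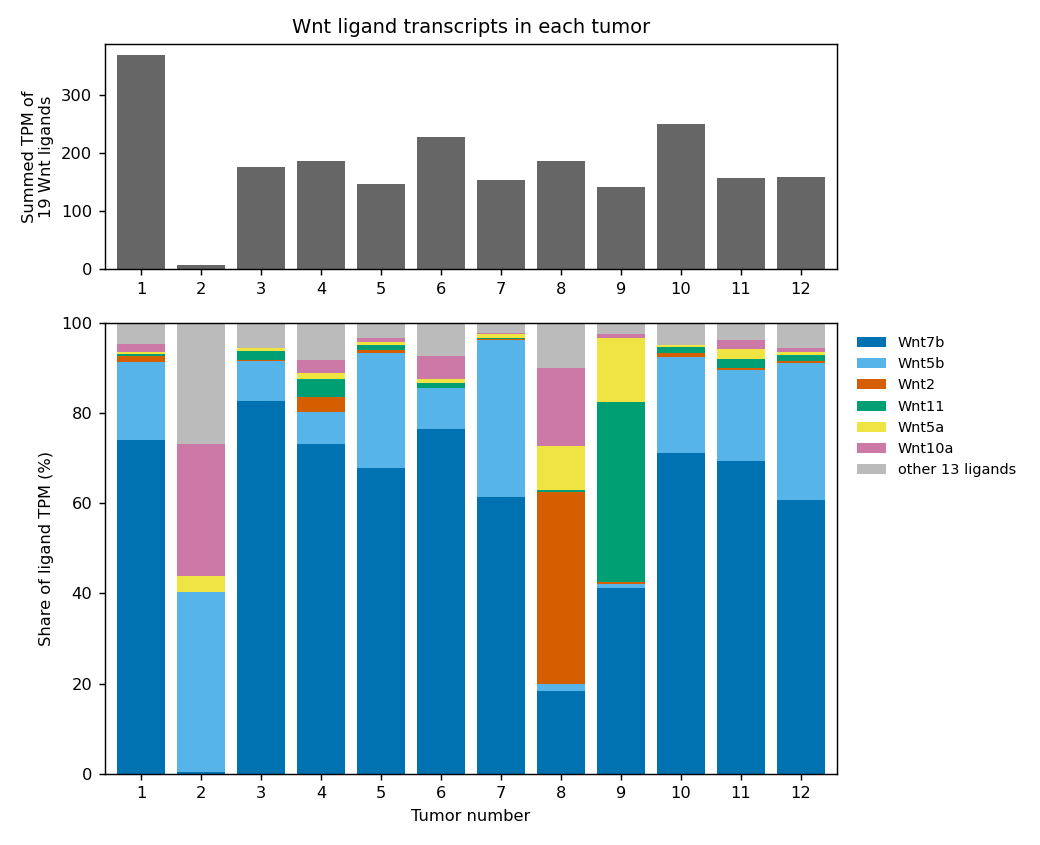
Summed TPM of the 19 Wnt ligands in each tumor (upper bars) and the percentage of that sum from 6 named ligands and the other 13 together (lower stacked bars). Wnt7b takes 60.7% to 82.7% in the 9 tumors other than 2, 8 and 9, Wnt2 leads in tumor 8 and Wnt11 nearly equals Wnt7b in tumor 9.

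Among the receptors, Fzd7, which is known to carry Wnt signals in mammary and basal-like cells, was the most abundant Frizzled in 10 of 12 tumors (chr1:59482424-59486955, plus strand). Its level was 125, 4.24, 91.0, 70.1, 111, 77.5, 175, 30.8, 18.0, 111, 98.0 and 83.8 TPM in tumors 1 to 12, or 80.0 ± 55.2 TPM (SD, n = 9 mice) and 111 ± 36.1 TPM without tumors 2, 8 and 9 (n = 6 mice). Tumors 2, 8 and 9 were again lowest. Fzd6, which acts in planar cell polarity, was at 33.0, 0.165, 30.1, 25.0, 35.5, 35.9, 50.8, 8.45, 20.2, 50.7, 34.6 and 52.8 TPM, and was the leading Frizzled in tumor 9 with 38.4% of Frizzled TPM.

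Fzd1 was at 12.1, 0.201, 20.8, 26.4, 14.4, 10.2, 8.55, 8.63, 5.73, 13.6, 11.1 and 12.2 TPM in tumors 1 to 12. Fzd2 was at 16.9, 0.543, 15.2, 14.7, 7.18, 6.02, 9.52, 14.1, 1.17, 2.73, 16.6 and 16.6 TPM. Fzd5 was at 12.4, 1.20, 15.8, 11.5, 15.6, 7.70, 9.08, 3.34, 2.15, 14.0, 13.8 and 14.5 TPM. These 3 receptors were lowest in tumor 2, and the order among their means (10.6 ± 6.40, 9.15 ± 5.89 and 8.79 ± 5.51 TPM, SD, n = 9 mice) lay within their spread, as did the means without tumors 2, 8 and 9 (13.5 ± 5.33, 11.1 ± 4.32 and 12.1 ± 3.06 TPM, SD, n = 6 mice).

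Tumor 2 held a different set of receptors. Fzd9, a Frizzled known from bone and from lymphoid development, was at 34.3 TPM there, 62.6% of its Frizzled TPM, and between 0 and 7.00 TPM elsewhere. Fzd4, known from retinal vessels, was at 14.0 TPM in tumor 2 and between 2.45 and 4.59 TPM elsewhere. In that tumor both stood beside high B lymphocyte genes and near-absent epithelial genes, whose part in these levels was not tested. Tumor 9, second for B lymphocyte genes, had Fzd9 at 0 and the lowest Fzd4 (2.45 TPM). Tumor 8, second lowest for epithelial genes, had Fzd9 at 0 and Fzd4 at 3.17 TPM. Within the B lymphocyte list, Ms4a1 reached only 2.18 TPM in tumor 2, below its 11.7 TPM in tumor 9. Fzd8 ranged from 0.0815 to 9.50 TPM, highest in tumor 7, Fzd3 from 0.0143 to 2.99 TPM and Fzd10 stayed under 1 TPM in every tumor.

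The co-receptor Lrp5 was at 80.1, 7.13, 40.0, 31.9, 79.9, 89.3, 98.0, 34.9, 28.1, 62.6, 69.6 and 68.0 TPM in tumors 1 to 12. Its partner Lrp6 was at 47.6, 23.6, 19.1, 18.9, 55.7, 34.0, 54.5, 14.5, 24.8, 30.8, 48.0 and 44.9 TPM. Lrp6 lay below Lrp5 in 11 of 12 tumors, the exception being tumor 2. On the log2(TPM + 1) scale the difference Lrp6 minus Lrp5 was -0.54 ± 0.87 (SD, n = 9 mice) and negative in 8 of 9 mice, which did not pass the threshold (two-sided exact sign-flip permutation test, p = 0.113, adjusted p = 0.151 over 4 gene pairs; the smallest p of this design is 0.0039). Without the mouse of tumor 2, the 1 mouse with the opposite sign, the difference was -0.80 with an adjusted p of 0.0156 by the same exact test over 8 mice. All 8 differences then had one sign, which fixes the unadjusted p of that test at 0.0078, the smallest possible. Without tumors 2, 8 and 9 the difference was -0.84 with an adjusted p of 0.0625, where the smallest unadjusted p is 0.0313.

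Of the R-spondin receptors, Lgr4 and Lgr6 were abundant and Lgr5 was not. Lgr4, the broadly expressed member of the family, was at 45.7, 5.00, 27.8, 21.9, 50.5, 44.8, 53.5, 1.87, 7.55, 35.6, 43.5 and 42.3 TPM in tumors 1 to 12. Lgr6, known from skin and mammary progenitors, was at 89.2, 1.84, 36.8, 31.5, 20.9, 20.0, 44.2, 25.0, 1.80, 49.7, 8.48 and 9.85 TPM. Lgr5, the marker of intestinal stem cells, was at 0.233, 24.9, 0.357, 2.54, 0.201, 0.196, 0, 1.49, 0.223, 0.364, 0.556 and 1.81 TPM. Lgr4 was low in tumors 2, 8 and 9, whereas Lgr6 was low in tumors 2 and 9 but not in tumor 8, and Lgr5 exceeded 3 TPM only in tumor 2. Lgr4 exceeded Lgr5 in 11 of 12 tumors, by 3.41 ± 2.71 on the log2 scale (SD, n = 9 mice) and in 8 of 9 mice (two-sided exact sign-flip permutation test, p = 0.0117, adjusted p = 0.0469 over 4 pairs). Without tumors 2, 8 and 9 the difference was 4.96 and positive in all 6 mice, but the adjusted p was 0.0625 by the exact test, whose smallest unadjusted p with 6 mice is 0.0313, and the call was also lost when any mouse but that of tumor 2 was left out (adjusted p of 0.0625 or 0.0938). Without the mouse of tumor 2, the 1 mouse with the opposite sign, it was 4.09 with an adjusted p of 0.0156 by the exact test. The other 8 mice had one sign, which fixes the unadjusted p of that test at 0.0078, the smallest possible.

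The E3 ligases Rnf43 and Znrf3, which remove Frizzled receptors from the cell surface and are themselves induced by Wnt signals, had means of 6.78 ± 7.88 and 6.07 ± 3.51 TPM (SD, n = 9 mice), or 5.77 ± 3.58 and 7.29 ± 3.49 TPM without tumors 2, 8 and 9 (n = 6 mice). Rnf43 (chr11:87662722-87735539, plus strand) was at 7.46, 0.126, 2.89, 2.79, 9.94, 3.30, 1.71, 0.856, 25.4, 5.22, 12.4 and 10.5 TPM in tumors 1 to 12. Znrf3 (chr11:5276324-5444847, minus strand) was at 2.81, 1.02, 14.2, 11.3, 9.68, 5.48, 5.82, 5.45, 4.46, 4.75, 7.79 and 9.05 TPM. Rnf43 was highest in tumor 9 and Znrf3 in tumors 3 and 4 of one mouse, and Znrf3 was the higher in 6 of 12 tumors. The difference Znrf3 minus Rnf43 was 0.29 ± 1.38 on the log2 scale (SD, n = 9 mice), and single mice lay between -2.27 and 1.83. It was positive in 5 of 9 mice, with p = 0.535 and adjusted p = 0.535 by the same exact test, and was 0.38 without tumors 2, 8 and 9 (adjusted p = 0.438, exact test).

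**Figure D3:**
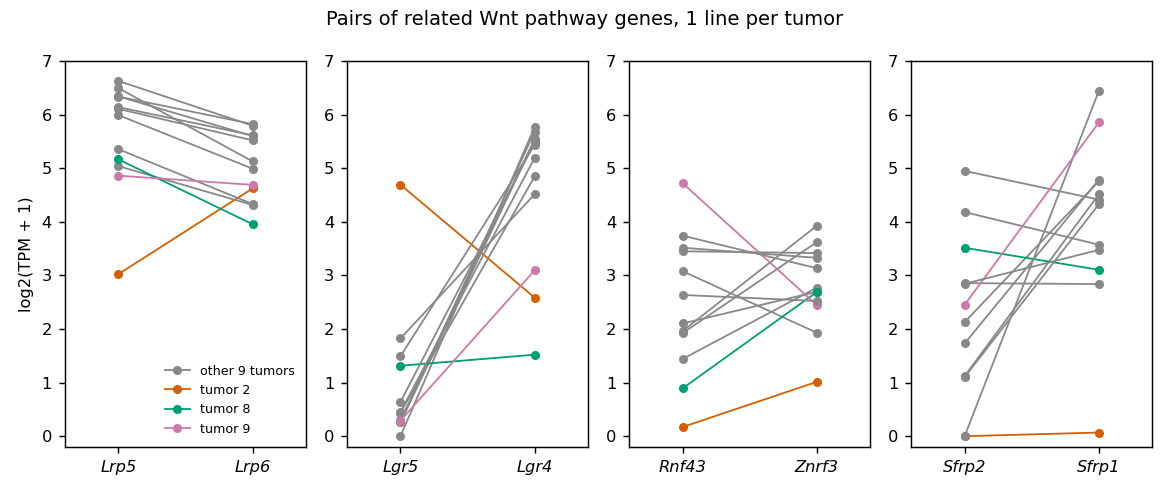
Log2(TPM + 1) of 4 gene pairs, with 1 line per tumor and tumors 2, 8 and 9 in colour. Lines fall from Lrp5 to Lrp6 and rise from Lgr5 to Lgr4 in 11 of 12 tumors, with tumor 2 running the other way in both, while Rnf43 and Znrf3 lines cross.

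Axin2 stayed under 10 TPM in every tumor and Notum exceeded 10 TPM in 3. Axin2, a scaffold of the beta-catenin destruction complex and a general target of the pathway (chr11:108920349-108950783, plus strand), was at 0.991, 2.03, 0.407, 1.51, 3.37, 2.63, 1.82, 8.47, 3.69, 5.77, 3.98 and 5.89 TPM in tumors 1 to 12, or 3.24 ± 2.39 TPM (SD, n = 9 mice) and 2.50 ± 1.63 TPM without tumors 2, 8 and 9 (n = 6 mice). Notum, an enzyme that removes the lipid from Wnt proteins (chr11:120653788-120661175, minus strand), was at 2.37, 0, 0, 0.688, 11.8, 1.51, 15.8, 17.3, 0, 1.75, 3.07 and 1.48 TPM. Tumor 8 was the highest for both, but tumor 7, second for Notum, had only 1.82 TPM of Axin2, and the 3 tumors at 0 for Notum had 0.407 to 3.69 TPM of Axin2. Tumor 1, with the most ligand TPM (369), had the second lowest Axin2.

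Over 9 mice, Axin2 and Notum had a Pearson r of 0.39 (exact permutation of pairings, two-sided, p = 0.296, adjusted p = 0.296 over 3 pairs) and a Spearman rho of 0.23 (exact permutation p = 0.557, adjusted p = 0.708). Without the mice of tumors 8 and 3, the farthest from the median of Axin2, r was -0.12, so the positive sign rested on them, and without tumor 8 alone it was 0.078. Axin2 and Nkd1, another feedback inhibitor that binds Dishevelled, had an r of 0.67 (exact permutation p = 0.0467, adjusted p = 0.140) and a rho of 0.53 (exact permutation p = 0.148, adjusted p = 0.443), and r without the same mice was 0.67 (exact permutation p = 0.0986). Leaving out each of these mice alone moved r in opposite directions, to 0.35 without that of tumor 8 (exact permutation p = 0.385) and 0.85 without that of tumors 3 and 4. Over the 6 mice without tumors 2, 8 and 9, r was 0.27 for Notum and 0.40 for Nkd1 (exact permutation, adjusted p = 0.852 for both). Nkd1 itself was low, between 0 and 2.97 TPM, with its highest value in tumor 8, unlike its relative Nkd2, whose median was 262 TPM. Over all 9 mice neither relation passed the threshold after adjustment.

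**Figure D4:**
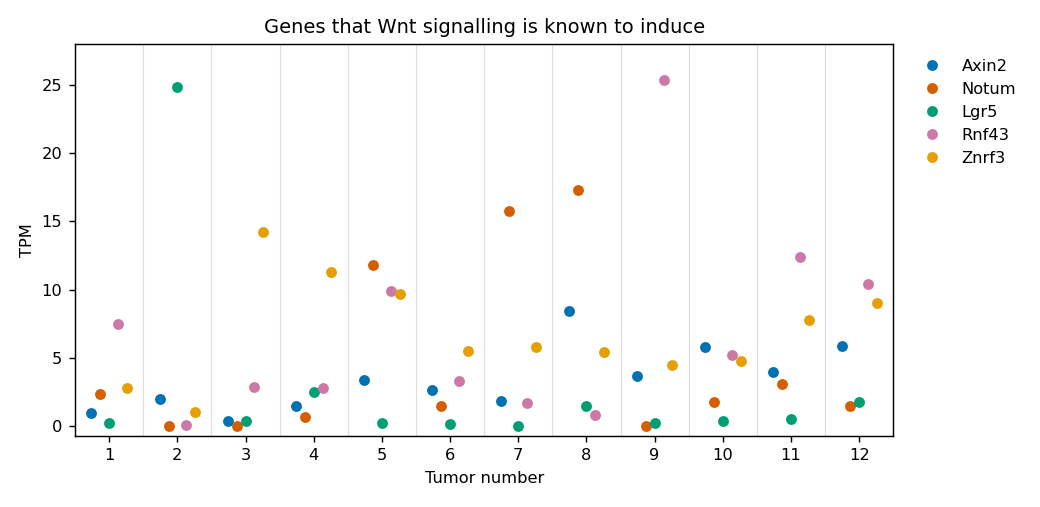
TPM of Axin2, Notum, Lgr5, Rnf43 and Znrf3, which Wnt signalling is known to induce, with 1 point per gene and tumor. The highest points belong to different tumors: Rnf43 in tumor 9 (25.4), Lgr5 in tumor 2 (24.9), Notum in tumor 8 (17.3), Znrf3 in tumor 3 (14.2) and Axin2 in tumor 8 (8.47).

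Among the secreted antagonists, Sfrp1, which binds Wnt proteins and is known from mammary epithelium (chr8:23411502-23449632, plus strand), was at 26.0, 0.0484, 10.9, 20.3, 6.15, 21.9, 85.8, 7.61, 56.9, 10.1, 19.1 and 26.5 TPM in tumors 1 to 12. Sfrp2, known from fibroblasts (chr3:83766321-83774316, plus strand), was at 3.37, 0, 17.2, 29.9, 6.24, 1.17, 0, 10.4, 4.47, 6.18, 1.15 and 2.32 TPM. Sfrp1 was highest in tumors 7 and 9 and Sfrp2 in tumors 3 and 4, and Sfrp2 was listed at 0 in tumor 7. Sfrp1 exceeded Sfrp2 in 8 of 12 tumors, by 1.92 ± 2.35 on the log2 scale (SD, n = 9 mice) and in 6 of 9 mice, which did not pass the threshold (p = 0.0547 and adjusted p = 0.109 by the exact test). The difference was 2.36 without tumors 2, 8 and 9 (adjusted p = 0.167, exact test). Sfrp4, also known from stroma, ranged from 0 in tumors 2 and 7 to 9.74 TPM in tumor 3, and Sfrp5 from 0 to 2.1 TPM in tumor 9.

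Sfrp1 and Fgfr1, a growth factor receptor gene on the same chromosome (chr8:25513654-25575718), had an r of 0.50 over 9 mice (exact permutation p = 0.179, adjusted p = 0.269) and a rho of -0.15 (exact permutation p = 0.708, adjusted p = 0.708). Without the mice of tumors 2 and 7 r was -0.67 (exact permutation p = 0.0988), without the mouse of tumor 2 alone it was -0.45, and without tumors 2, 8 and 9 it was -0.033. The positive r therefore rested on tumor 2, where both genes were below 1 TPM.

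Of the Dickkopf proteins, which mostly act by binding Lrp5 and Lrp6, the divergent member Dkk3 was the most abundant. Dkk3 was at 4.77, 13.8, 5.34, 15.5, 5.51, 5.80, 2.32, 41.1, 1.98, 5.97, 9.67 and 24.4 TPM in tumors 1 to 12. Dkk2 was at 3.19, 0.0316, 1.60, 1.56, 0.935, 1.65, 0.437, 2.81, 1.19, 2.88, 1.97 and 1.46 TPM. Dkk3 was highest in tumor 8 and second in tumor 12, and Dkk2 was lowest in tumor 2. Dkk1, the best known Lrp antagonist, was listed at 0 in 11 tumors and at 1.30 TPM in tumor 2.

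Sfrp2 was the 1 member whose slope on a fibroblast list passed the test across mice. The fibroblast level was the median log2(TPM + 1) of Col1a1, Col1a2, Col3a1, Dcn, Lum and Pdgfra, whose summed TPM ranged from 83.0 in tumor 2 to 3115 in tumor 8, with Lum at 0 in tumor 2. In a limma fit over 9 mice, 16 of 16773 genes (0.0954%) had a slope with a Benjamini-Hochberg adjusted p under 0.05, all positive. Of 33 members this held for Sfrp2, with a slope of 0.79 (SE 0.11) log2 units per log2 unit and an adjusted p of 0.0427 in limma. By tumor, Sfrp2 was at 0 in tumors 2 and 7, which had the lowest fibroblast levels, and at its 3 highest values in tumors 3, 4 and 8, which had the highest. Tumors 3 and 4, of one mouse, also stood apart for the 4 skeletal muscle genes (258 and 179 TPM, at most 29.1 TPM elsewhere), and tumor 4 was highest for the 4 adipocyte genes (67.2 TPM, next 31.0). Sfrp2, Sfrp4, Znrf3 and Fzd1 all had their 2 highest values in this pair, and the part of muscle and fat tissue in them was not tested. The Sfrp2 slope was 0.70 to 0.88 when a mouse was left out and 1.05 without tumors 2, 8 and 9. The adjusted p stayed under 0.05 only without the mouse of tumor 9, and in 6 of the 8 other fits that left out a mouse no gene passed.

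Slopes were positive for 27 of the 33 members with a median of 0.24, against 54.9% of all genes tested and a median of 0.017. This excess rested on tumor 2: without it 17 of 33 members were positive, with a median of 0.0051, against 48.7% of all genes and a median of -0.0043. Without tumors 2, 8 and 9 it was 17 of 31 members, with a median of 0.12, against 49.0% of all genes. At an unadjusted p under 0.05 in limma there were 9 of 33 members, and 1944 of all genes (11.6%). There were 7 of 33 members and 5.75% of all genes without tumor 2. Without tumors 2, 8 and 9 there were 11 of 31 members and 8.62% of all genes. Of the 9 with all mice, Wnt2 (slope 0.79), Fzd1 (0.48), Sfrp4 (0.47), Fzd2 (0.44), Dkk2 (0.28) and Znrf3 (0.28) were positive beside Sfrp2, and Fzd9 (-0.62) and Fzd4 (-0.24) were negative. Without tumor 2 the slopes of Fzd1 (0.16), Fzd2 (0.24), Znrf3 (0.12), Fzd9 (-0.18) and Fzd4 (-0.049) were nearer 0, and without tumor 8 that of Wnt2 was 0.38 and that of Sfrp4 0.74. The Sfrp4 slope was 0.84 without tumors 2, 8 and 9. Adjusted p for those 8 lay at or above 0.353 in limma with all mice. Of the 31 other Wnt pathway genes tested, 0 passed the adjusted threshold and 6 had an unadjusted p under 0.05 in limma.

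**Figure D5:**
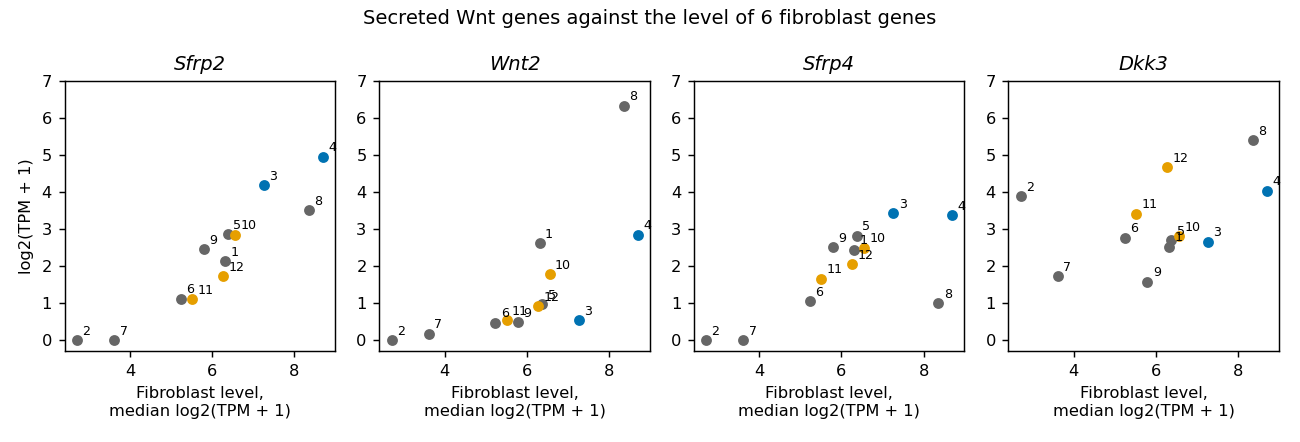
Log2(TPM + 1) of Sfrp2, Wnt2, Sfrp4 and Dkk3 against the fibroblast level (median log2(TPM + 1) of 6 fibroblast genes), with 1 numbered point per tumor and colours for the 2 mice with several tumors. Sfrp2 is at 0 in tumors 2 and 7 and highest in tumor 4, whereas Wnt2 is highest in tumor 8 and Sfrp4 is low there.

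Tumors of one mouse differed by a smaller median than tumors of different mice, with overlapping ranges and no test of the difference. The median absolute difference of log2(TPM + 1) over the 33 members was 0.37 to 0.61 in the 4 pairs from one mouse (median 0.45) and 0.28 to 2.61 in the 62 pairs from different mice (median 1.00). Without tumors 2, 8 and 9 the latter had a median of 0.68 over 32 pairs. Over all 16779 genes tested the medians were 0.27 in one mouse and 0.47 between mice, or 0.42 without those tumors. The SD over mice had a median of 1.38 log2 units for the members and 0.57 for all genes, and 0.57 and 0.38 without tumors 2, 8 and 9.

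A limma F-test of mouse over the 12 tumors called 42.9% of 16779 genes at an adjusted p under 0.05. Among the members it called 19 of 33: the ligands Wnt4, Wnt5a, Wnt5b, Wnt7b and Wnt11, the receptors Fzd1, Fzd5, Fzd6, Fzd7 and Fzd8, both Lrp co-receptors, Lgr4, Rnf43, Znrf3, Notum, Sfrp1, Sfrp2 and Sfrp4. Lgr5 (adjusted p = 0.0516 in limma), Wnt7a (0.0544), Axin2 (0.0545), Wnt2 (0.0597) and Dkk2 (0.0605) lay just outside. The test rests on the spread within the 2 mice that had several tumors, and the count is a description of members that could pass the expression filter through 1 tumor. Without tumors 2, 8 and 9 it called 0 of 31 members and 2.68% of all genes, and at an unadjusted p under 0.05 there were 15 of the 31 members and 30.9% of all genes. Without the mouse of tumors 3 and 4 it called 12 of 35 members and 14.3% of all genes.

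Some members differed widely between tumors of one mouse. Wnt10a was 46.4-fold and Wnt2 13.7-fold higher in tumor 4 (5.22 and 6.22 TPM) than in tumor 3 (0.112 and 0.455 TPM). In the other mouse, Fzd2 was 6.05-fold higher in tumor 11 than in tumor 10, Lgr6 was 5.86-fold higher in tumor 10 than in tumor 11, and Fzd9 was 32.5-fold higher in tumor 12 than in tumor 10. Tumor 12 of that mouse stood with tumor 11, with Fzd2 6.08-fold higher and Lgr6 5.05-fold lower than in tumor 10, and Fzd9 in tumor 11 (3.73 TPM) lay between tumors 10 and 12 (0.215 and 7.00 TPM). No replicate check exists for single tumors. Tumor 4 had higher sums than tumor 3 for the fibroblast genes (2851 against 1085 TPM) and the adipocyte genes (67.2 against 22.7 TPM) and a lower one for skeletal muscle (179 against 258 TPM), and their part in the difference was not tested. In tumors 10, 11 and 12 the adipocyte sums were 19.7, 1.74 and 7.45 TPM. Of 5 myoepithelial genes, Trp63 (0.551, 3.01 and 15.5 TPM) and Oxtr (0.231, 4.85 and 9.05 TPM) rose in that order, while Acta2, Myh11 and Cnn1 did not. Their part was not tested either.

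The other genes of the pathway were followed in a list of 38, of which 31 had a mean of 1 TPM or more, and the F-test of mouse in limma called 20 of these 31, against 42.9% of all genes. Without tumors 2, 8 and 9 it called 1 of 31 (2.68% of all genes), and without the mouse of tumors 3 and 4 it called 5 of 31 (14.3%). Ctnnb1, which encodes beta-catenin, lay between 346 and 859 TPM with a median of 514. Wls, the carrier that brings Wnt proteins to the surface, ranged from 39.4 TPM in tumor 1 to 264 TPM in tumor 8. Porcn, the enzyme that adds the lipid, was at 0.633 TPM in tumor 2 and between 5.47 and 27.4 TPM elsewhere.

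Rspo1, which activates the Lgr receptors, was at 110 TPM in tumor 9 and at most 4.40 TPM elsewhere. Tumor 9 was thus highest for Rspo1, Wnt11, Wnt5a and Rnf43, while Lgr4 (7.55 TPM) and Lgr6 (1.80 TPM) were low in it. Its 5 myoepithelial genes had the highest sum of all tumors (275 TPM, next 206), through Myh11 at 250 TPM (at most 3.44 TPM elsewhere), while Acta2 was lowest there at 22.2 TPM. With its B lymphocyte sum of 115 TPM, the part of these markers in the tumor 9 values was not tested. Rspo3 was at 7.67 TPM in tumor 7 and at most 1.24 TPM elsewhere. Lef1, a transcription factor of the pathway also known from lymphocytes, was at 50.9 TPM in tumor 2 and at most 3.36 TPM elsewhere, and Tcf7 ranged from 8.39 TPM in tumor 2 to 64.0 TPM in tumor 11. Of the other inhibitors and targets, Wif1 was at 34.9 TPM in tumor 2 and at most 4.09 TPM elsewhere, Sp5 stayed at or below 1.98 TPM and Frzb at or below 1.18 TPM. Others in the list, chosen here after their values were seen, were higher in at least 1 tumor. Nkd2, the relative of Nkd1, had a median of 262 TPM (3.01 to 392), the cell cycle gene Ccnd1 a median of 302 TPM and the adhesion receptor Cd44 a median of 291 TPM, with all 3 lowest in tumor 2. Tnfrsf19, a receptor that Wnt signals can induce, was at 314 TPM in tumor 9 and 191 TPM in tumor 2, and at most 19.4 TPM elsewhere.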

How the data were processed

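RNA of 12 tumors from 9 mice was sequenced as paired-end stranded mRNA libraries. The deposited values are TPM per Ensembl gene, which the authors made by trimming reads, then by alignment with HISAT2 to mouse transcripts of build GRCm38 and by quantification in StringTie 2.1.6, 1 column per tumor. How transcripts were summed per gene and whether strand was used in counting are not given in the sources used here, so genes that overlap others on the opposite strand are uncertain. TPM is relative to the other transcripts of a tumor.

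From the deposited TPM, log2(TPM + 1) was computed, and tumors of one mouse were averaged except in the F-test of mouse, which used the 12 tumors. Tests across genes used limma 3.58.1 (R 4.3.3) with a mean-variance trend, for genes with a mean of 1 TPM or more, with Benjamini-Hochberg adjustment over all genes tested. Gene pairs were tested by exact sign-flip permutation and correlations by exact permutation of pairings, in Python 3.11.15 with scipy 1.17.1. All members are named; values in every tumor are given for Axin2, Lrp5, Lrp6, Lgr4, Lgr5, Lgr6, Notum, Rnf43, Znrf3 and the 8 ligands, 5 Frizzleds, 2 Sfrp and 2 Dkk genes with the highest mean TPM. Met was chosen after its values were seen. The members, lists and rules were chosen with earlier results of these data known. Genomic positions come from GENCODE for GRCm38. On simulated data with 200 changed genes among those of each comparison, the F-test recovered 9.5% of changes of 3 within-mouse SD, with 13.6% of its calls false, and 99.5% of changes of 10 SD (4.78% false), and the slope test 97.5% of changes of 3 SD (4.88% false). Alternatives were a pseudocount of 0.1, no filter, quantile normalization, no trend, rescaling without mitochondrial genes, each tumor as a unit, the mean of the fibroblast list, and leaving out each mouse; leaving out tumors 2, 8 and 9 was added after seeing the data.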

Additional observations from a re-analysis of the deposited data

Results flagged for a closer look

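The 42 members above 0 in any tumor and 11 pathway genes (Ctnnb1, Wls, Porcn, Rspo1, Rspo3, Lef1, Tcf7, Nkd1, Sp5, Wif1 and Frzb) were examined for single mice that stood apart, and the rest of the pathway list was not. In 20 of these 53 genes, 1 of the 9 mice lay far from the others by Dixon's ratio on log2(TPM + 1). Chance flags about 1 in 20 groups of normally distributed values, a rate that does not hold for genes near 0. Dkk1 and Wnt9b, among the 20, were above 0 in only 1 tumor, which fixes their ratio at 1, and Wnt8a (0.98) was near it. Of the 20, 11 came from tumor 2, 4 from tumor 9 and 3 from tumor 8. By the same rule 18.5% of the 16779 genes with a mean of 1 TPM or more stood out, 53.5% of them through tumor 2. Among the 33 members with such a mean it was 10 (30.3%), 7 of them through tumor 2, and the difference was not tested. Lgr5 and Wnt2b, among those 10, reached that mean only through the tumor that flagged them (0.725 and 0.785 TPM without it). Their flags are therefore not independent of the filter.

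The mouse of tumor 2 was highest for Lgr5 (4.69, next mouse 1.31), Fzd9 (5.14, next 2.12), Fzd4 (3.91, next 2.40) and Dkk1 (1.20, next 0), and for the pathway genes Lef1 (5.70, next 2.12) and Wif1 (5.16, next 2.35). It was lowest for Wnt7b (0.048, next 5.14), Fzd1 (0.26, next 2.75), Fzd6 (0.22, next 3.24), Lrp5 (3.02, next 4.86) and Porcn (0.71, next 2.79). Its 6 epithelial genes summed to 1.25 TPM and its 5 B lymphocyte genes to 1852 TPM, and their part in these values was not tested.

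The mouse of tumor 9 was highest for Wnt11 (5.86, next 2.60), Rspo1 (6.79, next 2.24), Sfrp5 (1.63, next 0.43) and Wnt8a (0.85, next 0.017). The mouse of tumor 8 was highest for Wnt2 (6.33, next 2.63), Wnt2b (2.37, next 1.11) and Wnt6 (2.93, next 1.16). The mouse of tumor 7 was highest for Rspo3 (3.12, next 1.16), and that of tumors 3 and 4 for Wnt9b (0.023, all others at 0), which was near the limit of the values.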

How the results depend on the processing

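No paired comparison of conditions was possible because a single condition was sampled. The number of members that differed between mice (19 of 33 in the limma F-test) was 12 to 25 when a mouse was left out (12 of 35 without the mouse of tumors 3 and 4, with 14.3% of all genes, and 25 of 35 without that of tumors 10 to 12, with 46.8%) and 0 of 31 without tumors 2, 8 and 9, and within 1.5 times the reported count under the other alternatives. The fibroblast slope, which 1 member passed, called 0 members without a filter, with quantile normalization, with the mean of the fibroblast list, without tumors 2, 8 and 9 and in 8 of 9 fits without a mouse (range 0 to 1), 6 of which called no gene at all. Lgr4 minus Lgr5 kept its sign throughout, from 3.11 to 4.09 without a mouse and 4.96 without tumors 2, 8 and 9, but missed the threshold in 8 of 9 such fits, all of which kept tumor 2, and in the latter, where 6 mice remain. With each tumor as a unit, Lrp6 minus Lrp5 (-0.59) and Sfrp1 minus Sfrp2 (1.77) passed the threshold (exact permutation, adjusted p = 0.0358 for both), although tumors of one mouse then count as separate. Without a mouse these were -0.80 to -0.43 and 1.35 to 2.23, Znrf3 minus Rnf43 was 0.10 to 0.61, Axin2 with Notum 0.078 to 0.57, Axin2 with Nkd1 0.35 to 0.85 (lowest without tumor 8, and past the threshold without the mouse of tumors 3 and 4, exact permutation adjusted p = 0.0264) and Sfrp1 with Fgfr1 -0.45 to 0.66, reversed at -0.45 without the mouse of tumor 2 and at -0.033 without tumors 2, 8 and 9. Depth limits the scarce members: with TPM alone, a value of 0 sets no upper limit on their level.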
